A study of Mus musculus with 6 samples.

Results

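The ovarian surface epithelium is the single layer of cells that covers the ovary, and its transcripts were followed here through 10 marker genes in cultured mouse ovary. The markers were taken by symbol: the keratins Krt7, Krt8, Krt18 and Krt19, the uroplakins Upk1b and Upk3b, the receptor Lgr5, and the surface proteins Msln, Muc16 and Pkhd1l1. All 10 had a row among the 26329 genes measured, and 9 reached the mean of 1 FPKM needed for the test, which was run on 12922 genes. Muc16 was the member below that mean. RNA from whole ovaries was sequenced in 6 libraries: 3 Control libraries, from ovaries kept in culture with the solvent DMSO, and 3 ISRIB libraries, from ovaries kept with ISRIB dissolved in DMSO. ISRIB is a small molecule that activates the translation factor eIF2B and thereby counteracts the integrated stress response. Both groups thus share the culture and the solvent. For these cultured ovaries the sources used here give no strain, age, dose or culture time, and the series text names newborn ICR mice for its injection experiments. The series is about this response and the activation of resting follicles, and the surface layer is part of the same whole-ovary RNA. The 6 libraries held 34474453 to 38001722 reads on genes, as worked back from the FPKM.

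The surface epithelium is continuous with the mesothelium that lines the body cavity and shares most of its markers. Keratins are the filament proteins of epithelia, and a type II chain (Krt7 or Krt8) always assembles with a type I chain (Krt18 or Krt19). Uroplakins are tetraspanins and their partners, best known from the plaques of the bladder surface. Lgr5 is a receptor for R-spondins, which strengthen WNT signalling, and it marks cells of the ovarian surface that divide and repair it. Mesothelin, the product of Msln, is anchored in the outer membrane and binds the giant mucin encoded by Muc16, the carrier of the CA125 antigen. None of these genes is restricted to the surface layer: keratins occur in other ovarian cells and in any oviduct left on the ovary, and Lgr5 also in somatic cells beneath the surface.

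The starts of the keratin genes are shown because Krt8 and Krt18, which lie 23698 bases apart with their starts facing each other on chromosome 15, followed one another closely across the libraries. Each line gives 25 bases before and 5 bases after the RefSeq start of the gene (GRCm38.p6), read along the gene's own strand, with the letters TATAA in capitals:
Krt8 (chr15:102004338-102004367, minus strand): tcccctggggctggcctcttctttTATAAa
Krt18 (chr15:102028191-102028220, plus strand): cggcgaTATAAcaacaggtcgaggactgcc
Krt7 (chr15:101412378-101412407, plus strand): tccgccccgcatggaggaataaaaggtcgc
The letters TATAA, the core of the TATA box, were searched on both strands. They lay at the RefSeq start itself in Krt8 and 19 bases before it in Krt18. They did not occur in the 30 bases of Krt7, nor in those of Upk3b and Muc16, which were the other members matched in the RefSeq table (5 of 10 in all). The distance of 23698 bases and the gene positions given below use GENCODE M21, whose starts differ. They are 102004482 against 102004342 in RefSeq for Krt8, 102028180 against 102028216 for Krt18 and 101411043 against 101412403 for Krt7. The GENCODE starts were not searched. Of 32851 RefSeq promoters, 1.99% held the letters in this 30-base window, and 24.9% held them in a window of 300 bases. The 300-base windows of Krt7 and Krt18 held 21 and 17 CpG dinucleotides, that of Krt8 held 6, and those of Upk3b and Muc16 held 2 and 1, against a median of 7 over all promoters. The window was chosen after seeing where the letters lay, and a match describes letters, not binding.

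No surface epithelium marker passed the test between ISRIB and Control. With limma on log2(FPKM + 0.5), 0 of the 9 tested members had an adjusted p under 0.05, and 0% of all 12922 tested genes did, the smallest adjusted p of any gene being 0.0608. At an unadjusted limma p under 0.05 there were 2125 genes, 1126 higher and 999 lower, and 2 of the members, Lgr5 and Pkhd1l1, were among the lower ones (7.73% of all tested). All 9 tested members, and Muc16 as well, had a lower mean in ISRIB. Their median log2 fold change was −0.18, beside 0.01 over all tested genes, of which 48.2% were lower. The members differed in how far the groups lay apart. Lgr5, Pkhd1l1 and Muc16 had their 3 ISRIB values under all 3 Control values, as did 12.0% of the tested genes, whereas the 4 keratins, both uroplakins and Msln overlapped. With voom on whole reads worked back from the FPKM, again 0 of the 9 passed, against 0.929% of all genes. The labels do not say that the replicates are different animals or cultures, so every p measures the spread between these libraries, which may be technical.

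Control replicate 1 stood apart for these genes, though not for them alone. It was the highest of the 6 libraries for 9 of the 10 members, and the median deviation of the 10 from their own means was 0.25 there on the log2 scale, compared with 0.05 in Control replicate 2, −0.03 in Control replicate 3, and −0.03, −0.11 and −0.14 in the ISRIB libraries. The summed level of the 9 tested members was 318 FPKM in Control replicate 1, 255 and 248 FPKM in the other Control libraries, and 258, 250 and 246 FPKM in ISRIB. How many of all tested genes were highest in Control replicate 1 was not counted. Of the gene lists described below, its sum was also the highest for other mesothelial (506 FPKM), junction (325 FPKM), desmosome and plakin (108 FPKM), WNT (159 FPKM) and mesenchymal genes (1023 FPKM). The sums of the remaining lists were highest in other libraries. Without Control replicate 1 the median log2 fold change of the members was −0.03, and 4 of the 9 (Krt8, Krt18, Krt19 and Upk3b) had a slightly higher mean in ISRIB. Values without it are given beside each member below.

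**Figure D1:**
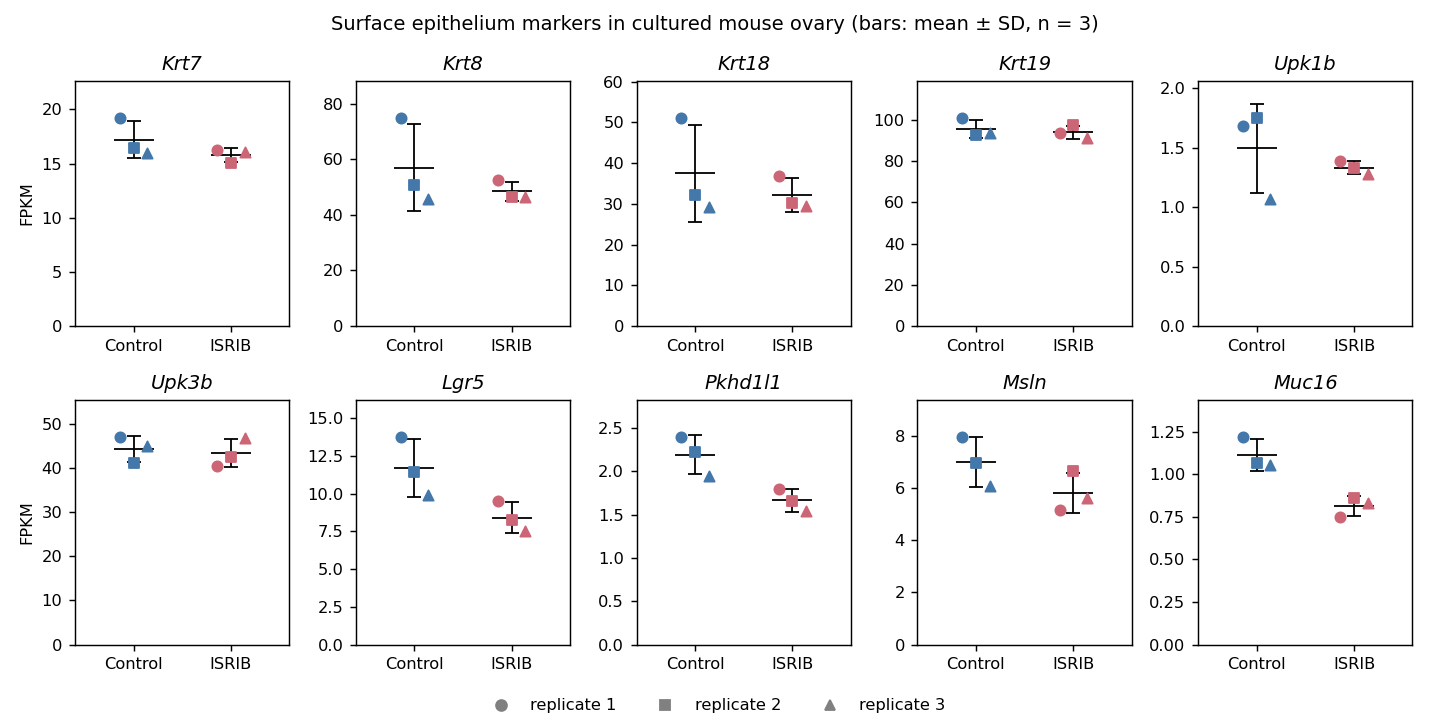
FPKM (y axis, linear and from 0) of the 10 surface epithelium markers in each Control and ISRIB library, with the mean and SD of 3 libraries per group as black bars. The circle of Control replicate 1 is the highest point in every panel except that of Upk1b, and the groups are fully separated for Lgr5, Pkhd1l1 and Muc16.

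Of the 4 keratin members, Krt19 had the highest FPKM and the smallest spread among Control libraries. This type I keratin is widely used to mark the ovarian surface (chromosome 11, 100140810 to 100148665, minus strand, GRCm38). It measured 101, 92.6 and 93.6 FPKM in Control and 93.7, 97.5 and 91.0 FPKM in ISRIB, so that the ISRIB values lay within the spread of Control apart from one slightly lower library. The log2 fold change was −0.02 (SE 0.0483, 95% interval −0.13 to 0.09, limma adjusted p = 0.846), and 0.015 without Control replicate 1. About 5000 reads fell on Krt19 in each library (4657 to 5147), and its coefficient of variation was 4.69% among Control libraries where counting alone gives 1.41%.

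Krt8 and Krt18, the partner chains of simple epithelia, varied far more, and they did so together. Krt8 (chromosome 15, 101996698 to 102004482, minus strand) measured 74.7, 50.7 and 45.6 FPKM in Control and 52.5, 46.6 and 46.3 FPKM in ISRIB. Krt18 (chromosome 15, 102028180 to 102032027, plus strand) measured 50.9, 32.2 and 29.2 FPKM in Control and 36.9, 30.2 and 29.4 FPKM in ISRIB. For both genes Control replicate 1 was far above the rest, ISRIB replicate 1 was second, and the other 4 libraries lay close together. The ratio of Krt8 to Krt18 stayed between 1.42 and 1.58 in all 6 libraries, while the ratio of Krt8 to Krt19 ran from 0.477 to 0.741. Log2 fold changes were −0.20 for Krt8 (SE 0.162, limma adjusted p = 0.569) and −0.18 for Krt18 (SE 0.192, limma adjusted p = 0.681). Without Control replicate 1 they were 0.01 and 0.06. The coefficient of variation among Control libraries was 27.2% for Krt8 and 31.5% for Krt18, with 1.62% and 2.26% from counting. Of the 50-base words in the longest Krt8 transcript, 26.9% also occur in the pseudogene Krt8-ps, and reads from that stretch could be assigned to either locus. For Krt18 that share was 0.720%.

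Krt7, the second type II chain (chromosome 15, 101411043 to 101430313, plus strand), measured 19.2, 16.4 and 16.0 FPKM in Control and 16.2, 15.1 and 16.1 FPKM in ISRIB. Only Control replicate 1 stood above the other libraries, and by a smaller step than for Krt8. The log2 fold change was −0.12 (SE 0.0745, limma adjusted p = 0.479), and −0.04 without that library. Taken by filament type, the type II chains Krt7 and Krt8 summed to 61.6 to 93.9 FPKM and the type I chains Krt18 and Krt19 to 120 to 152 FPKM, a type II to type I ratio of 0.482 to 0.619 per unit of transcript length. Keratins of other epithelia were low. The highest value of the 12 keratins listed beside the members was 1.63 FPKM, for Krt20 in Control replicate 1, and Krt14 of stratified epithelia was the only one to reach the test, with 1.05, 1.54 and 0.740 FPKM in Control and 1.39, 1.01 and 0.837 FPKM in ISRIB. The lowest value of any keratin member was 15.1 FPKM.

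**Figure D2:**
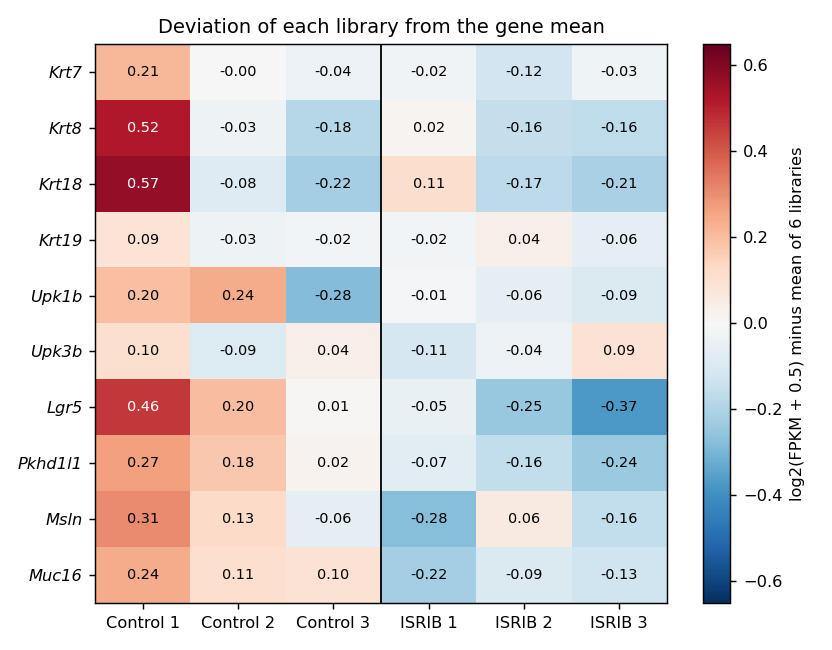
Deviation of log2(FPKM + 0.5) in each library (columns) from the mean of the 6 libraries for that gene (rows are the 10 members, red above and blue below the mean). Control replicate 1 is above the mean for all 10 members, from 0.09 for Krt19 to 0.57 for Krt18, and Lgr5, Pkhd1l1 and Muc16 are above it in every Control and below it in every ISRIB library.

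The uroplakins differed widely in level and neither separated the groups. Upk3b, a marker of mesothelium and of the ovarian surface (chromosome 5, 136038496 to 136046487, plus strand), measured 47.0, 41.1 and 44.9 FPKM in Control and 40.5, 42.6 and 46.7 FPKM in ISRIB. Both ranges nearly coincided. The log2 fold change was −0.04 (SE 0.0685, 95% interval −0.19 to 0.12, limma adjusted p = 0.833), and 0.01 without Control replicate 1 or without ISRIB replicate 1. Upk1b, a tetraspanin (chromosome 16, 38773184 to 38800328, minus strand), was near the lower limit of the test with 1.68, 1.75 and 1.06 FPKM in Control and 1.39, 1.33 and 1.28 FPKM in ISRIB. All ISRIB values fell between the Control values. Only 77 to 126 reads per library lay behind it, and its log2 fold change of −0.11 had a 95% interval of −0.46 to 0.25 (limma adjusted p = 0.772), which does not exclude a difference of the size seen for Lgr5. It was −0.03 without Control replicate 1, −0.01 without Control replicate 2 and −0.27 without Control replicate 3 (limma adjusted p = 0.353). Of the uroplakins outside the members, Upk1a was at 1.17 to 1.95 FPKM, while Upk3a and Upk3bl stayed under 1 FPKM.

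Lgr5 showed the largest difference of the tested members. The gene (chromosome 10, 115450311 to 115587780, minus strand) measured 13.8, 11.4 and 9.93 FPKM in Control and 9.53, 8.24 and 7.50 FPKM in ISRIB. Its ISRIB values all lay below its Control values, though Control replicate 3 and ISRIB replicate 1 were close. Group means were 11.7 ± 1.94 and 8.42 ± 1.03 FPKM (SD, n = 3 each), a difference of −28.0%. On the log2 scale the difference was −0.45 (SE 0.125, 95% interval −0.73 to −0.16), with an unadjusted limma p of 0.00741 and an adjusted p of 0.154. Without Control replicate 1 it was −0.33 (limma adjusted p = 0.333). Over the alternatives the adjusted p ran from 0.0727 to 0.359. Reads numbered 1276 to 2263 per library, so counting gave a coefficient of variation of 2.21% in Control where 16.5% was seen. Set against Krt19 in the same library, the Lgr5 level was 13.7%, 12.3% and 10.6% of it in Control and 10.2%, 8.46% and 8.24% in ISRIB, without overlap. Krt19 itself varied little between the libraries (91.0 to 101 FPKM), so this ratio largely repeats the Lgr5 values, and it was not tested.

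Lgr5 acts within the R-spondin branch of WNT signalling, and other receptors and ligands of that branch were measured too. Log2 fold changes were −0.01 for the related receptor Lgr4, 0.18 for Lgr6, 0.05 for the ligand Rspo1 and −0.03 for Rspo2, with overlapping groups for all 4 (limma adjusted p of 0.659 to 0.934). Of 16 receptors, ligands and WNT feedback genes listed, 12 were tested, 10 of them lower and 2 higher in ISRIB, and none passed. Their median log2 fold change was −0.06, and −0.12 among those with a mean of at least 5 FPKM. Tnfrsf19, a receptor induced by WNT, measured 37.8, 32.6 and 31.3 FPKM in Control and 28.7, 29.2 and 27.4 FPKM in ISRIB, a log2 fold change of −0.25 (limma adjusted p = 0.166). Axin2, a feedback inhibitor that WNT signalling switches on, had a log2 fold change of −0.16 with overlapping groups (limma adjusted p = 0.257). Nkd1, another inhibitor of this kind, had all ISRIB libraries below Control but a log2 fold change of −0.09 (limma adjusted p = 0.366).

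Pkhd1l1 and Muc16, which code for the longest proteins of the list, separated the groups too. Pkhd1l1 encodes a large membrane protein related to fibrocystin (chromosome 15, 44457494 to 44601369, plus strand). It measured 2.40, 2.23 and 1.95 FPKM in Control and 1.80, 1.66 and 1.54 FPKM in ISRIB, without overlap. Its log2 fold change was −0.31 (SE 0.105, 95% interval −0.55 to −0.07, limma adjusted p = 0.215), and −0.26 without Control replicate 1. Across the 6 libraries its standardised profile was the nearest of any member to that of Lgr5 (root mean square distance 0.148), as was that of Krt18 to Krt8 at the same distance. Reads numbered 768 to 1180, and voom on these reads gave −0.39 (adjusted p = 0.0866).

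Muc16 (chromosome 9, 18495455 to 18674530, minus strand) measured 1.22, 1.07 and 1.05 FPKM in Control and 0.747, 0.863 and 0.831 FPKM in ISRIB. Every ISRIB library was below every Control library, and the means of 1.11 ± 0.0919 and 0.813 ± 0.0598 FPKM (SD, n = 3 each) gave a difference of −27.0%. The gene length implied by the FPKM was 27228 bases, and 731 to 1145 reads per library lay behind the values. The mean of 0.964 FPKM kept it out of the test. The difference in mean log2(FPKM + 0.5) was −0.30, and −0.25 without Control replicate 1. With no filter on low values limma gave an adjusted p of 0.422, and in voom on all genes with a mean of at least 10 reads, a setting chosen after seeing the data to include this gene, the log2 fold change was −0.45 (adjusted p = 0.0552). Relative to Upk3b in the same library, Muc16 stood at 2.60%, 2.60% and 2.35% in Control and 1.84%, 2.03% and 1.78% in ISRIB.

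The difference between the groups depended on gene length over the whole table, and the members have to be read beside that. Of the 1003 tested genes of at least 10000 bases, which include Pkhd1l1 at 13978 bases, 75.2% were lower in ISRIB and 32.3% had all ISRIB libraries below Control. Of the 4161 tested genes under 2500 bases, 29.5% were lower and 3.2% lay wholly below. Krt7, Krt8, Krt18, Krt19, Upk1b, Upk3b and Msln all belong to this short class (1102 to 2061 bases), and Lgr5, at 4769 bases, falls in the class of 2500 to 5000 bases, where 9.62% lay wholly below. With the trend on length removed from each library, the log2 fold change of Lgr5 was −0.43 (limma adjusted p = 0.245), that of Pkhd1l1 was −0.24 (adjusted p = 0.358) and that of Msln was −0.33 (adjusted p = 0.311). The part of length in the result for Muc16, and in its ratio to the short gene Upk3b, was not tested.

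Msln, whose product binds that of Muc16 (chromosome 17, 25748613 to 25754378, minus strand), measured 7.95, 6.96 and 6.06 FPKM in Control and 5.15, 6.63 and 5.62 FPKM in ISRIB. The groups overlapped through ISRIB replicate 2, which lay above Control replicate 3. Its log2 fold change was −0.25 (SE 0.116, 95% interval −0.52 to 0.02, limma adjusted p = 0.333), and −0.16 without Control replicate 1. With 204 to 302 reads per library, counting alone gave a coefficient of variation of 5.94% in Control, compared with 13.5% seen. Among the other membrane mucins only Muc1 and the endothelial Emcn were tested, and Muc1 was at 2.31 to 2.89 FPKM with a log2 fold change of −0.00.

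**Figure D3:**
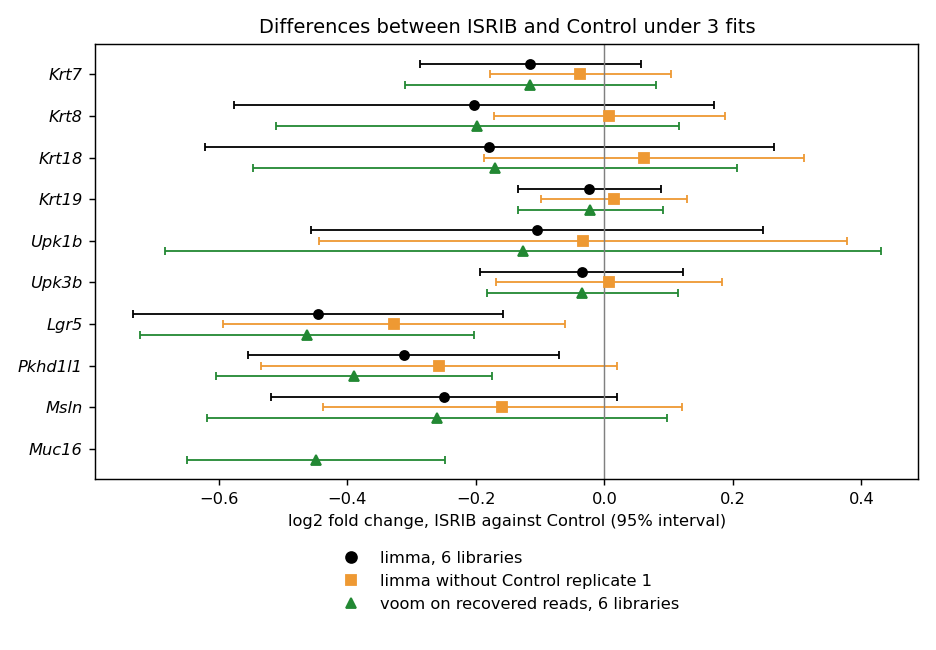
Log2 fold change of ISRIB against Control (x axis) with its 95% interval for each member under limma with 6 libraries (circles), limma without Control replicate 1 (squares) and voom on recovered reads of genes with a mean of at least 10 reads (triangles). Krt8, Krt18, Krt19 and Upk3b sit at or just above 0 once Control replicate 1 is left out, and the intervals of Lgr5 stay below 0 in all 3 fits. Muc16 has a value in voom alone.

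Genes that mark the surface layer or the mesothelium but are not among the 10 gave a mixed picture. Of 20 listed, 19 were tested, 13 lower and 6 higher in ISRIB, with a median log2 fold change of −0.06, and −0.02 among those with a mean of at least 5 FPKM. None passed. Wt1, the transcription factor of mesothelium and gonad, was flat with 146, 134 and 135 FPKM in Control and 131, 138 and 141 FPKM in ISRIB. Aldh1a2, which makes retinoic acid in mesothelium, had a log2 fold change of 0.06 (limma adjusted p = 0.477). Aldh1a1, a related enzyme reported in the surface epithelium, had 52.4, 57.5 and 47.5 FPKM in Control and 42.1, 48.1 and 38.9 FPKM in ISRIB, a log2 fold change of −0.28 (limma adjusted p = 0.201). The glycoprotein gene Cd24a lay wholly below Control (−0.30, limma adjusted p = 0.240) and the P-cadherin gene Cdh3 wholly above it (0.18, limma adjusted p = 0.219). The summed level of this list was 477 to 506 FPKM in Control and 476 to 485 FPKM in ISRIB.

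Genes of epithelial junctions and of the sites where keratin filaments are anchored were also measured, and no gene of either list passed. Of the junction and polarity genes, 8 of 15 tested were higher and 7 lower, with a median log2 fold change of 0.02. That median was −0.04 after TPM rescaling and −0.10 among genes with a mean of at least 5 FPKM. The tested genes of this list summed to 316 to 325 FPKM in Control and 303 to 311 FPKM in ISRIB, without overlap. Of the 15, 3 lay wholly below Control and 0 wholly above it, where 12.0% of all tested genes lay wholly below. At an unadjusted limma p under 0.05, 5 were lower and 0 higher. Tjp1, which codes for the tight junction scaffold ZO-1, had 43.9, 42.3 and 41.3 FPKM in Control and 37.1, 37.6 and 35.1 FPKM in ISRIB, a log2 fold change of −0.21 (limma adjusted p = 0.112). Cgn, the tight junction protein cingulin, had a log2 fold change of −0.19 (limma adjusted p = 0.217). Of the desmosome and plakin genes, 9 of 11 tested were lower and 2 higher, with a median of −0.13, and −0.08 after the length correction. Their sums did not overlap either, at 102 to 108 FPKM in Control and 98.9 to 101 FPKM in ISRIB. Of these 11 genes, 4 lay wholly below Control and 1 wholly above it, where 12.0% of all tested genes lay wholly below. That share ran from 3.2% in the shortest to 32.3% in the longest length class. Neither this list nor that of the junction genes was compared by length class. The plakoglobin gene Jup, the desmoglein gene Dsg2 and the plectin gene Plec were among the 4 (−0.16, −0.26 and −0.21). Perp, a desmosomal membrane protein, lay wholly above Control with 6.26, 7.19 and 9.76 FPKM in Control and 10.3, 10.4 and 12.1 FPKM in ISRIB (0.49, limma adjusted p = 0.172).

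Levels of members were also set against each other within each library. The ratio of Krt7 to Krt19 ran from 0.155 to 0.190, and the standardised profiles of these genes lay further apart (root mean square distance 0.865) than those of Krt8 and Krt18. Pkhd1l1 stood at 2.38%, 2.40% and 2.08% of the Krt19 level in Control and at 1.92%, 1.70% and 1.69% in ISRIB. Msln stood at 16.9%, 16.9% and 13.5% of the Upk3b level in Control and at 12.7%, 15.6% and 12.0% in ISRIB, with overlap. These pairs were chosen after their values were seen and were not tested. Pkhd1l1 is far longer than Krt19 (13978 against 1433 bases), and long genes were more often lower in ISRIB than short ones. The part of length in these ratios was not tested.

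**Figure D4:**
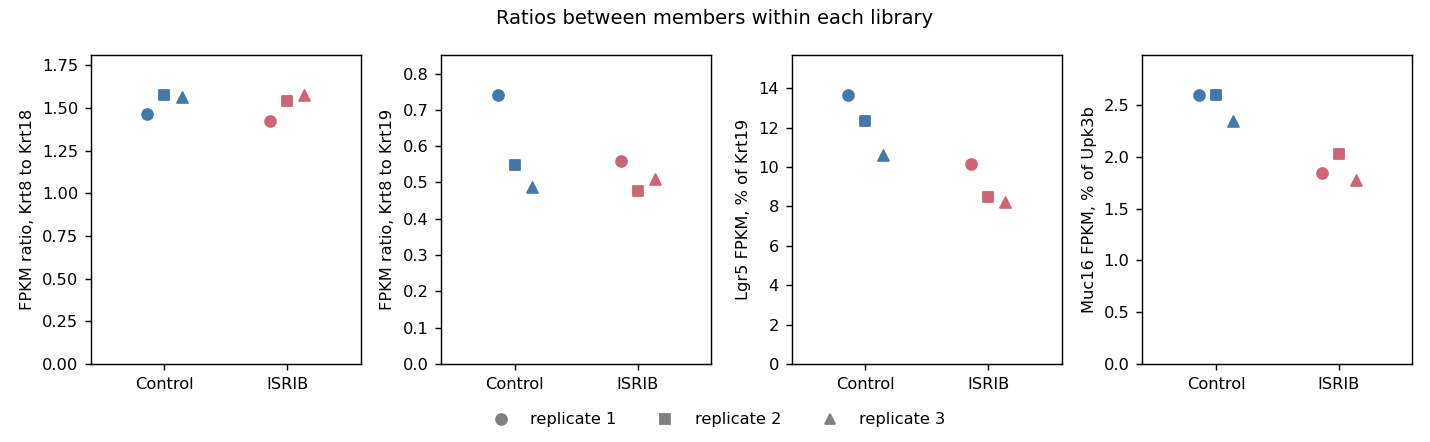
Ratio of FPKM between members within each library (y axes from 0), with a point for each of the 3 Control and 3 ISRIB libraries. The Krt8 to Krt18 ratio lies between 1.42 and 1.58 throughout, the Krt8 to Krt19 ratio is highest in Control replicate 1 at 0.741, and the Lgr5 to Krt19 and Muc16 to Upk3b percentages are lower in all ISRIB libraries. Muc16 is far longer than Upk3b (27228 against 2061 bases), and the part of length in their ratio was not tested.

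Genes outside the list were ranked by the distance of their standardised profile over the 6 libraries from the mean profile of the 9 tested members. Predicted and clone-named genes were left out. The 8 nearest to that mean profile were Sema4b, Axl, Drp2, Pdlim5, Bcr, Chrm4, Ccnd1 and Mmd. Their root mean square distance from it was 0.136 to 0.191, against a median of 1.28 over all tested genes and 0.266 for Krt8, the nearest member. That profile is mainly the high value of Control replicate 1, which was 1.94 standard deviations above the mean. Axl, a receptor tyrosine kinase, measured 119, 104 and 98.4 FPKM in Control and 95.6, 98.2 and 96.2 FPKM in ISRIB, and Ccnd1, which codes for cyclin D1, 10.02, 7.82 and 7.33 FPKM in Control and 6.69, 6.95 and 6.84 FPKM in ISRIB. Both lay wholly below Control, with log2 fold changes of −0.14 and −0.27 (limma adjusted p = 0.334 and 0.274). As they were picked for likeness to a profile that is itself low in ISRIB, this direction follows largely from the choice. Drp2, Pdlim5 and Mmd, picked in the same way, overlapped between the groups.

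Markers of other cells were summed in the same libraries, and their part in the results for the surface genes was not tested. No gene of these lists passed with limma, and of the cell type sums only that of the endothelium did not overlap between the groups. Sums of the lists above for junctions, desmosomes and plakins, WNT and other membrane mucins did not overlap either, all lower in ISRIB. The WNT list summed to 150 to 159 FPKM in Control and 140 to 148 FPKM in ISRIB. The mucin list, of which only Muc1 and Emcn were tested, summed to 13.36 to 14.45 FPKM in Control and 12.74 to 13.22 FPKM in ISRIB. Most of that sum was Emcn, at 10.97 to 11.68 FPKM in Control and 10.33 to 10.48 FPKM in ISRIB. Emcn is also in the endothelial list, so the 2 sums are not separate results, and Muc1 overlapped between the groups. In whole-ovary RNA fewer cells of a type and less RNA per cell cannot be told apart. Endothelial genes were lower in 12 of 12 cases, summing to 251 to 278 FPKM in Control and 217 to 248 FPKM in ISRIB. For granulosa cells 8 of 14 were higher and the sums were 805 to 884 FPKM and 821 to 946 FPKM. Stroma and theca genes were higher in 7 of 12 cases, with sums of 1791 to 1901 FPKM and 1752 to 1983 FPKM, immune genes lower in 7 of 10 (89.3 to 102 FPKM and 94.0 to 95.2 FPKM), and oocyte genes higher in 9 of 13 (1763 to 1973 FPKM and 1894 to 2126 FPKM). Mesenchymal and filament genes were lower in 9 of 12 cases (925 to 1023 FPKM and 884 to 1003 FPKM). Oviduct and mesonephric genes were higher in 4 of 6 tested, with sums of 65.6 to 69.8 FPKM and 62.3 to 70.0 FPKM, and the listed genes differed widely in level. Ovgp1, Foxj1 and Pax2 were at or under 1.28 FPKM in every library, while Sox17 was at 3.70 to 5.45 FPKM, Epcam at 21.7 to 26.8 FPKM and Emx2 at 29.2 to 31.7 FPKM. Pax8 was at 3.02 to 4.24 FPKM in 5 libraries and at 7.81 FPKM in ISRIB replicate 3, the library in which Foxj1 was also highest. Immediate early genes, which respond to stimuli within minutes, summed to 231, 448 and 246 FPKM in Control and 671, 280 and 248 FPKM in ISRIB. Control replicate 1, the library with the highest keratin levels, had the lowest sum, close to that of Control replicate 3 and ISRIB replicate 3. ISRIB replicate 1, which was second for Krt8 and Krt18, had the highest sum. A link between these genes and the keratins was not tested.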

How the data were processed

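Total RNA of cultured ovary was sequenced in 3 Control and 3 ISRIB libraries, grouped by their titles. The authors deposited FPKM, a value scaled to gene length and library size, in 1 column per library. HISAT2, HTSeq, DESeq2, fastp, R 3.2.0 and the build mm10 are named, without roles, per the submitters' processing notes. The annotation and strand setting are not given there, and antisense reads may not be told apart. Exons of Krt7 and Krt8 overlap the opposite-strand genes Gm671 and Gm36026, by 77 and 101 bases in GENCODE M21.

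Depth was worked back from the FPKM, each being whole reads times a library and a gene factor. All 23977 genes present in at least 2 libraries came out whole (100.0%, tolerance 0.01 read). Totals were 34474453 to 38001722 reads, and an implied gene length followed from the gene factor. For reads, counting error alone is 100 divided by the square root of the mean reads.

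As FPKM cannot enter a count test, log2(FPKM + 0.5) was fitted with limma 3.58.1 in R 4.3.3 (2 groups, empirical Bayes with intensity trend, two-sided, Benjamini-Hochberg over the 12922 genes with a mean of at least 1 FPKM, threshold 0.05). Fold changes are on that scale, which understates low genes. The fit was tested on simulated data. The members and lists were chosen with earlier results of these data known. Named genes were all members, up to 4 genes of each other list with the smallest p and up to 2 with the highest mean (a selection is printed), and the 8 nearest profiles, with predicted and clone-named genes left out. Genes outside this rule, Upk3a, Upk3bl, Krt20, Ovgp1, Foxj1, Pax2, Pax8, Lgr4, Lgr6, Rspo1 and Rspo2, were chosen after their values were seen. Protein identity between keratins was not used here. Gene positions are those of GENCODE M21 on GRCm38, to which mm10 corresponds. Python 3.11.15, pandas 2.3.3 and matplotlib 3.10.9 made the tables and figures.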

Additional observations from a re-analysis of the deposited data

How the results depend on the processing

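The number of genes past the threshold was 0 with limma as reported (2125 at an unadjusted p under 0.05). It was 8 with a mean of at least 5 FPKM, 19 after TPM rescaling, 120 in voom on recovered reads and 118 in voom with a mean of at least 10 reads, the last chosen after seeing the data. With the replicate number as a block it was 11. Same-numbered libraries did not deviate together (correlations of −0.190, −0.091 and 0.192), and only the third pair correlated best with its own number, so the numbers were not taken to pair the samples. No surface epithelium marker passed in any of these fits. Leaving out single libraries gave a median of the members of −0.334 (without Control replicate 3) to −0.0332 (without Control replicate 1), and 0 to 4 members higher in ISRIB. The log2 fold change ran from −0.345 to 0.0079 for Krt8, −0.334 to 0.0621 for Krt18, −0.0488 to 0.015 for Krt19 and −0.0912 to 0.0102 for Upk3b, and changed sign for no other member: −0.55 to −0.33 for Lgr5, −0.38 to −0.26 for Pkhd1l1 and −0.32 to −0.25 for Muc16. The other settings, pseudocounts of 0.1 and 1, no filter, 3 scalings, no trend, voom and the length correction, gave a median of −0.24 to −0.17 and kept all tested members lower. At a mean of at least 5 FPKM, Upk1b and Pkhd1l1 were not tested and the other keratins and uroplakins gave no value. Depth limits Upk1b most, with 77 reads at the lowest.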
